A study of Mus musculus with 32 samples.

Results

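Hippocampal gene expression in young mice lacking caspase-11 was compared with that in young mice lacking the inflammasome adaptor ASC or the sensor NLRP3. The comparison used 10 of the 32 arrays of the series: 4 titled CASP 11-/-, young on the first side, and 3 titled ASC -/- and 3 titled CIAS -/-, also young, on the other. The 6 arrays of the second side formed 1 side by giving the ASC and CIAS knockouts equal weight, and each knockout was also compared with CASP11 -/- alone. CIAS is an older name of Nlrp3, the ASC protein is encoded by Pycard, and mouse caspase-11 is encoded by Casp4. All mice of the 3 groups, and of the 4 young wild type arrays shown beside them, were of the C57BL/6J background and 1 month old and had eaten chow since weaning. Each array measured total RNA of hippocampus, the brain structure in which new memories are formed, on an Illumina bead array. The other 18 arrays came from old mice (6 each of wild type, ASC -/- and CIAS -/-), and no old CASP11 -/- array was analysed here. The alleles and the exons removed are not given in the labels, which also do not say whether the arrays of a group came from separate animals.

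Inflammasomes are cytosolic complexes in which a sensor such as NLRP3 recruits the adaptor ASC, which in turn gathers and activates caspase-1. Caspase-1 then matures interleukin-1 beta and interleukin-18 and cleaves gasdermin D, whose fragment opens pores in the cell membrane. Caspase-11 works differently: it binds bacterial lipopolysaccharide in the cytosol directly and cleaves gasdermin D without ASC, and NLRP3 and ASC are engaged afterwards by the resulting ion efflux. Loss of caspase-11 therefore removes a separate entry point, while ASC and NLRP3 act in the same complex. In the brain these genes are best known from microglia, the resident macrophages.

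Levels are log2 signals after background correction and normalization, and differences are CASP11 -/- minus the mean of the other knockouts unless stated. A gene was called when its adjusted p in limma lay under 0.05, over 11178 measured features (10308 named genes and 870 probes without a gene symbol). The spread between arrays of a group was small, with a median SD over all features of 0.10 in CASP11 -/-, 0.11 in ASC -/- and 0.11 in CIAS -/-. A whole-tissue array cannot tell fewer cells of a type apart from less RNA per cell.

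The knocked-out genes themselves were little informative on this array. The only probe of Casp4 that was detected read 5.32, 5.44, 5.52 and 5.51 on the CASP11 -/- arrays. It read 5.29, 5.47 and 5.43 in ASC -/- and 5.60, 5.29 and 5.59 in CIAS -/-. The groups overlapped, and the difference was 0.01 (SE 0.08, adjusted p = 0.985). Nlrp3 (2 probes), Pycard (1 probe) and the 2 further Casp4 probes gave no detected signal on any array (0 of 32). The sources used here do not place these probes inside or outside the removed sequence, and so they do not check the genotypes. Casp1, which encodes the caspase downstream of ASC, read 7.33, 7.50, 7.36 and 7.63 in CASP11 -/-. It lay between 7.05 and 7.81 on the other 6 arrays, a difference of 0.01 (SE 0.23, adjusted p = 0.994).

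CASP11 -/- hippocampus differed from the other knockouts mainly by lower transcripts. Of all features tested, 191 were called (1.71%), 142 of them lower (1.27%) and 49 higher (0.438%) in CASP11 -/-. The lower genes also moved further. Their median difference was -0.63 against 0.37 for the higher genes and 0.01 for all features, and 32 lower genes but 0 higher genes reached 2-fold. Among the called features 167 had a gene symbol. In 176 of the 191 the 4 CASP11 -/- arrays lay wholly above or wholly below the other 6, where 8.01% of all features did so. The calls rest on these same arrays, so the lack of overlap follows largely from the choice, also for the single called genes below. The number of calls depended strongly on which arrays estimated the spread: a fit of the 14 young arrays alone called 555 features (4.97%), 177 of them among the 191. It fell to between 78 and 117 without any single CASP11 -/- array and to 121 without CIAS -/- replicate 4, and rose to 336 without wild type old replicate 6 and to 865 with array weights.

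**Figure D1:**
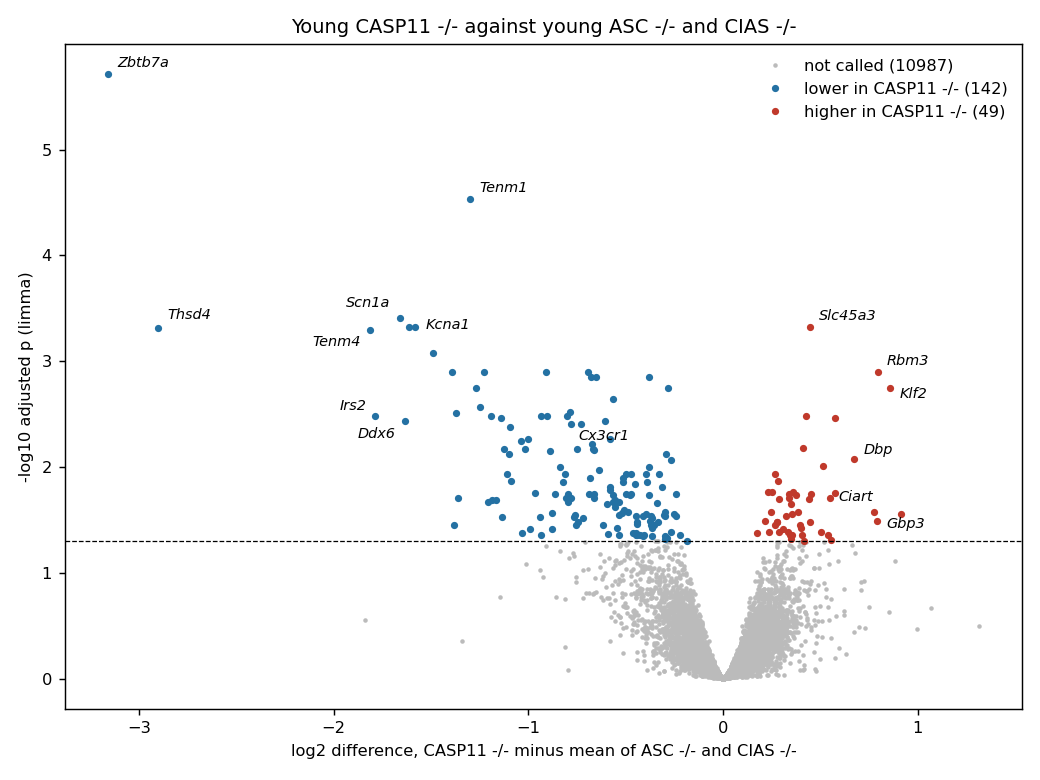
Each point is a feature, placed by its log2 difference (CASP11 -/- minus the mean of ASC -/- and CIAS -/-) and by -log10 of its adjusted p in limma, with the dashed line at the threshold of 0.05. The 142 lower features reach past -3 on the log2 axis, while the 49 higher ones all lie under 1.

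The ASC and CIAS knockouts did not separate from each other. Between them 0 of 11178 features were called in limma (0%), and 375 had an unadjusted p under 0.05 (3.35%). Of the 191 called features, 4 were among those 375, and the largest ASC-minus-CIAS difference in either direction was 0.42. Taken singly, CASP11 -/- differed from ASC -/- in 32 features (0.286%) and from CIAS -/- in 115 (1.03%). The features called against both with the same sign numbered 23 (0.206%), 20 lower (0.179%) and 3 higher (0.0268%), and all 23 were among the 191. All 191 had the same sign against both knockouts, 77 were called against CIAS -/- alone, 7 against ASC -/- alone and 84 against neither singly. The 191 were chosen by the mean of both knockouts, and both single comparisons share the CASP11 -/- arrays. The shared sign is therefore largely fixed by the choice. The count of 23 rested on individual arrays, since it was 11, 10 and 2 without ASC -/- replicates 1, 2 and 4, 7 without CIAS -/- replicate 4 and from 9 to 15 without any single CASP11 -/- array. With only 3 arrays on each side, a difference between ASC and CIAS can have been missed. For Zbtb7a, for example, the difference between them was 0.31, with a 95% interval from -0.55 to 1.16.

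The largest fall was that of Zbtb7a, which encodes a zinc-finger transcriptional repressor. It read 4.65, 4.99, 4.72 and 4.70 in CASP11 -/-, and was detected on none of these 4 arrays. In ASC -/- it read 7.73, 8.16 and 8.34, in CIAS -/- 8.12, 7.30 and 7.89, and on the wild type arrays 8.69, 8.63, 8.42 and 8.63. All CASP11 -/- arrays thus lay at background and all others well above it. Because of this only a bound can be given. Taking for the dim side the lowest signal with detection p under 0.05 on each array, Zbtb7a was at least 7.42-fold lower (adjusted p = 1.93e-06).

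Ppargc1a, a coactivator that drives mitochondrial biogenesis, read 7.39, 7.34, 7.21 and 7.56 in CASP11 -/-. It read 8.84, 8.92 and 9.02 in ASC -/- and 9.11, 8.81 and 9.22 in CIAS -/-. The sides were apart by more than 1 log2 unit, and it fell by 1.61 (SE 0.24, adjusted p = 0.000472). Nsd1, a histone H3 lysine-36 methyltransferase, differed by -1.27 (adjusted p = 0.00177), Zmiz1, a transcriptional coactivator, by -1.25 (adjusted p = 0.00272), and Mllt3, a reader of acylated histones in the super elongation complex, by -1.37 (adjusted p = 0.00312). Another probe of each of these 3 genes was not called: its difference was -0.0048 for Nsd1, 0.07 for Zmiz1 and 0.29 for Mllt3. The other probes of Nsd1 and Mllt3 were detected on all 10 arrays, whereas that of Zmiz1 was detected on only 1 and could not show a drop.

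Ion channels of neurons were among the genes that fell furthest. Scn1a encodes a voltage-gated sodium channel that inhibitory neurons depend on for firing. It read 7.66, 7.88, 7.62 and 7.75 in CASP11 -/-, against 9.00, 9.39 and 9.83 in ASC -/- and 9.55, 9.10 and 9.47 in CIAS -/-. The gap between the sides was wider than the range within either of them, and the fall was 1.66 (SE 0.24, adjusted p = 0.00039).

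Kcna1 encodes the voltage-gated potassium channel Kv1.1 of axons. It read 5.48, 5.39, 5.48 and 5.56 in CASP11 -/-, 6.89, 7.26 and 7.48 in ASC -/- and 7.00, 6.78 and 6.97 in CIAS -/-. No array of the one side came near the other, and it fell by 1.58 (SE 0.24, adjusted p = 0.000472). The P/Q-type calcium channel gene Cacna1a fell less, by 0.45 (SE 0.12, adjusted p = 0.0438). Here the sides overlapped, and the call was lost in 10 of 25 settings (adjusted p up to 0.174). Tmem63b, an ion channel opened by membrane stretch, differed by -1.23 (adjusted p = 0.00126) with the probe tested and by 0.08 with a dimmer probe that was detected on only 3 of the 10 arrays.

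Scn1a, Kcna1 and Cacna1a were the called members of a list of 17 measured genes for synapses and neuronal activity channels, 3 lower and 0 higher. Of all features 1.27% were called lower. The list's median difference was -0.08 against 0.01 for all features, and 11 of its members were negative. In CASP11 -/- 5 of the 17 lay below all 6 other arrays, where 5.17% of all features did. The synaptic vesicle calcium sensor Syt1 had a difference of -0.37 (adjusted p = 0.099), with CASP11 -/- arrays from 11.73 to 11.85 and the other 6 from 12.06 to 12.33. In the fit of the 14 young arrays 5 members were called lower, Scn1a, Kcna1 and Cacna1a with Syt1 and the synaptic vesicle gene Syn2, where that fit called 3.61% of all features lower. Syn2 was chosen after its value was seen.

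Teneurins are large transmembrane proteins by which neurons recognise each other across the synapse. Tenm4 read 7.80, 7.69, 7.47 and 8.12 in CASP11 -/-, 9.42, 9.69 and 9.78 in ASC -/- and 9.62, 9.24 and 9.77 in CIAS -/-. The sides were more than 1 log2 unit apart, and it fell by 1.81 (SE 0.28, adjusted p = 0.000508). Tenm1 was detected on 0 of the 4 CASP11 -/- arrays, which read 4.92, 4.58, 4.74 and 4.81, and on all 6 of the others, which read from 5.75 to 6.30. It was at least 2.04-fold lower (adjusted p = 2.91e-05).

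Further genes that fell belong to growth signalling, RNA turnover and the extracellular matrix. Irs2, the adaptor that carries insulin and IGF-1 receptor signals, read 6.23, 6.88, 6.01 and 7.05 in CASP11 -/- and from 8.10 to 8.65 on the other 6 arrays. It varied more between the CASP11 -/- arrays (SD 0.50, n = 4) than the genes above, and it fell by 1.79 (SE 0.33, adjusted p = 0.00327). Ddx6 encodes an RNA helicase of processing bodies, where mRNAs are stored and decapped. It read 6.62, 6.98, 6.49 and 6.59 in CASP11 -/- and from 7.96 to 8.62 on the others, and fell by 1.63 (SE 0.31, adjusted p = 0.00371). Both other probes of Ddx6 were called as well, at -1.56 and -0.81.

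Thsd4, which encodes a matrix protein that binds fibrillin microfibrils, read 5.32, 5.82, 5.56 and 5.66 in CASP11 -/- and from 7.95 to 8.76 on the others. The sides did not overlap, Thsd4 fell by 2.90 (SE 0.44, adjusted p = 0.000483), and a second probe was called at -2.07. Fam168a (difference -1.39, adjusted p = 0.00126) and Creg2 (-1.38, adjusted p = 0.0354) complete the 15 genes with the largest fall. The call of Creg2 was lost in 13 of 25 alternative settings, whereas those of Fam168a and of the other 13 held in all.

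**Figure D2:**
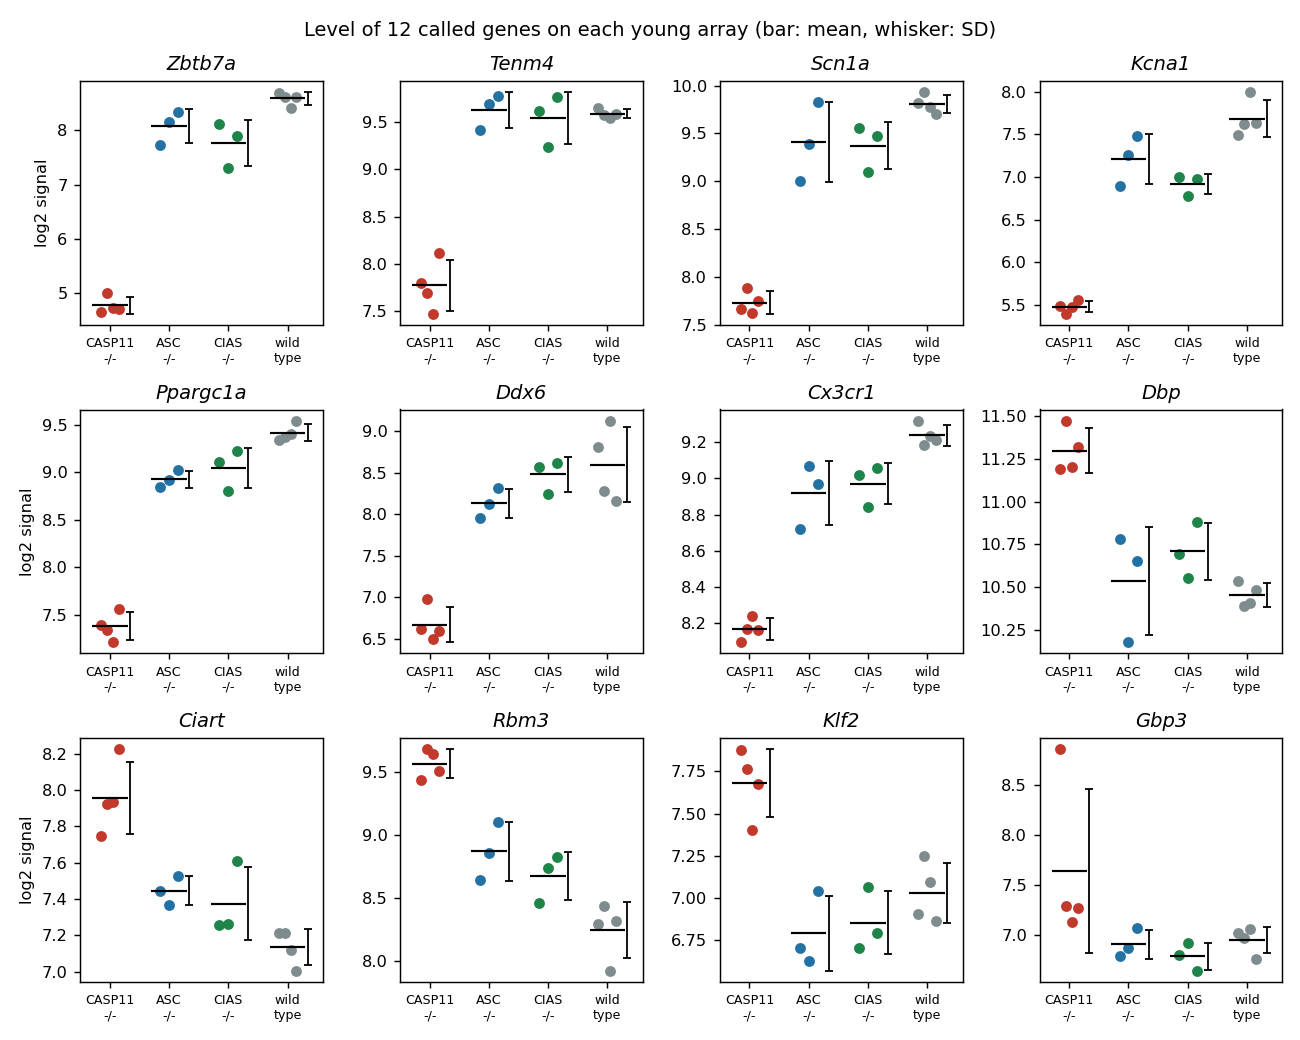
Log2 signal of 12 called genes on each young array, by group, with the group mean as a bar and the SD as a whisker (4 CASP11 -/-, 3 ASC -/-, 3 CIAS -/- and 4 wild type arrays). The panels for Zbtb7a, Tenm4, Scn1a, Kcna1, Ppargc1a, Ddx6 and Cx3cr1 show CASP11 -/- alone at the bottom, and those for Dbp, Ciart, Rbm3, Klf2 and Gbp3 show it at the top.

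Genes called higher in CASP11 -/- moved by less than 1 log2 unit, and only 6 of the 49 reached 1.5-fold. Klf2, a transcription factor known for keeping endothelial cells quiescent, read 7.88, 7.77, 7.40 and 7.68 in CASP11 -/-. It read 6.70, 6.63 and 7.04 in ASC -/- and 6.70, 7.06 and 6.79 in CIAS -/-. The sides did not overlap, and it rose by 0.86 (SE 0.15, adjusted p = 0.00177).

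The cold-inducible RNA-binding proteins, whose levels rise when body or cell temperature drops, were both among the 15 largest increases. Rbm3 read 9.43, 9.68, 9.64 and 9.50 in CASP11 -/-, 8.64, 8.86 and 9.11 in ASC -/- and 8.46, 8.74 and 8.83 in CIAS -/-. CASP11 -/- arrays were the highest throughout, and Rbm3 rose by 0.79 (SE 0.13, adjusted p = 0.00126). Its 2 other probes, both near background at means of 5.15 and 5.18, differed by 0.25 and 0.04 and were not called. Cirbp read 8.08, 8.20, 8.35 and 8.19 in CASP11 -/- and from 7.57 to 7.87 on the other 6 arrays. It rose by 0.51 (SE 0.11, adjusted p = 0.00972) without overlap. On the young wild type arrays both genes lay lower still than in the young ASC and CIAS knockouts. There Rbm3 read from 7.92 to 8.44 and Cirbp from 7.20 to 7.54. The old CIAS -/- arrays, outside this comparison, read from 9.14 to 9.57 for Rbm3 and from 7.80 to 8.26 for Cirbp. Both ranges overlapped CASP11 -/-. Rbmx, a nuclear RNA-binding protein that acts in splicing, rose by 0.57 (adjusted p = 0.00348).

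In the circadian clock CLOCK and BMAL1 bind E-box elements in DNA and drive genes, some of whose products then repress them. Dbp and Ciart are among the genes so driven. Dbp, a transcription factor that carries the rhythm to other genes, read 11.19, 11.47, 11.20 and 11.32 in CASP11 -/-. It read 10.78, 10.18 and 10.65 in ASC -/-, 10.69, 10.55 and 10.88 in CIAS -/- and from 10.39 to 10.54 in wild type. CASP11 -/- lay above all others, and Dbp rose by 0.67 (SE 0.14, adjusted p = 0.00841). Ciart, a repressor of CLOCK and BMAL1, read 7.75, 7.92, 7.93 and 8.22 in CASP11 -/- and from 7.25 to 7.61 on the other 6 arrays. It rose by 0.55 (SE 0.13, adjusted p = 0.0195), and its second probe differed by 0.46 (adjusted p = 0.0957, over all probes).

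These were the only called members among 19 measured clock genes, where 0.438% of all features were called higher. The list as a whole had a median difference of -0.03, with 9 members positive and 10 negative. Nr1d2, which encodes a repressor of the clock's second loop, had a difference of 0.28 (adjusted p = 0.266). The time of day at which the tissue was taken is not given in the labels, so the part of sampling time in these values was not tested. The call of Dbp was lost in 1 and that of Ciart in 3 of 25 alternative settings.

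The promoters of these clock outputs are shown because both genes rose. Each window runs from 250 bases before to 50 bases after the RefSeq start site in GRCm38.p6, 5' to 3' on the gene's strand, with the perfect E-box CACGTG in capitals. That motif reads the same on both strands and is held by 7.15% of the 32851 mouse promoter windows of this length. Ciart lies on the minus strand at chr3:95882179-95882478 and Dbp on the plus strand at chr7:45704997-45705296.
Ciart: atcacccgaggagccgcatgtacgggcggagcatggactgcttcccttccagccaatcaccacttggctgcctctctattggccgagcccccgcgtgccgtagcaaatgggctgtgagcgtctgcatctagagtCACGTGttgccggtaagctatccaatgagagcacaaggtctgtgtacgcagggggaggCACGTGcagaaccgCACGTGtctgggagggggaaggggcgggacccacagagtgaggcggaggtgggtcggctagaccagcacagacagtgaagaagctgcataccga
Dbp: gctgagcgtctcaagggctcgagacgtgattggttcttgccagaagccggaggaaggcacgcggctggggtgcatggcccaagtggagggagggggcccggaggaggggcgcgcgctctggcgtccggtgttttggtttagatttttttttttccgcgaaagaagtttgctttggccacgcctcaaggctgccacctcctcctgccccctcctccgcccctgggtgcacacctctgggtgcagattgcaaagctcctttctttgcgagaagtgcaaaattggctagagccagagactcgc
The Ciart window held 3 copies, starting 116, 58 and 44 bases before the start site, and the Dbp window held 0. By gene, 8 of the 39 called higher genes with a promoter in the table held the motif (20.5%). So did 10 of the 98 called lower genes (10.2%) and 8.09% of all genes in the promoter table, including genes not measured here. The share among the genes tested here was not computed, so the called genes have no like background. These are descriptions of sequence, and binding was not measured.

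Few immune genes were called, although several immune lists leaned to positive differences. Positive values were found for 11 of 12 MHC genes (median 0.22), 11 of 13 genes of NF-kB and cytokines (0.10), 11 of 14 interferon-stimulated genes (0.14), 8 of 10 complement genes (0.14) and 15 of 19 genes of activated microglia (0.20), against a median of 0.01 for all features, with 0 called in each. Of 12 measured genes of the inflammasome and the interleukin-1 family, 0 were called and the median difference was 0.01, the same as for all features. Txnip, which binds thioredoxin and NLRP3, had the largest positive value among them, at 0.37 (adjusted p = 0.301), and the channel gene Panx1 the largest negative one, at -0.22 (adjusted p = 0.268). Gsdmd, which encodes gasdermin D, lay from 5.64 to 6.03 in CASP11 -/- and from 5.56 to 5.85 on the other 6 arrays, with overlap and a difference of 0.13 (adjusted p = 0.595).

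Guanylate-binding proteins are interferon-induced GTPases that expose bacterial lipopolysaccharide to caspase-11. Gbp3 was the only called gene among 16 measured for cytosolic lipopolysaccharide sensing and guanylate binding, where 0.438% of all features were called higher. It read 8.86, 7.30, 7.13 and 7.28 in CASP11 -/-, 6.79, 6.87 and 7.07 in ASC -/- and 6.80, 6.92 and 6.65 in CIAS -/-. All CASP11 -/- arrays were the higher ones, but replicate 1 stood far above the others. Gbp3 rose by 0.79 (SE 0.20, adjusted p = 0.0321), its second probe also was called at 0.84, and without replicate 1 the difference was 0.38 (adjusted p = 0.126). The call was lost in 9 of 25 alternative settings.

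The same replicate was highest for other interferon-induced genes. Gbp2 read 8.95, 7.07, 6.85 and 6.84 in CASP11 -/- and the antiviral membrane protein gene Ifitm3 read 10.04, 9.32, 9.08 and 9.20. Cd74, the invariant chain of MHC class II, read 7.04, 5.28, 4.82 and 5.31, and H2-Eb1, a class II chain, read 6.22, 5.19, 4.91 and 4.83. None of these 4 genes was called (adjusted p from 0.0765 to 0.322). The summed signal of 14 interferon-stimulated genes ranged from 2656 to 4517 in CASP11 -/-, from 2699 to 3128 in ASC -/- and from 2651 to 3458 in CIAS -/-. The groups overlapped. For the 12 MHC genes the sum ranged from 2380 to 4020 in CASP11 -/-, from 2208 to 2505 in ASC -/- and from 2189 to 2409 in CIAS -/-. The part of replicate 1 in the medians of these lists was not tested.

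Microglial genes gave a single call. Cx3cr1, the microglial receptor for the neuronal chemokine fractalkine, read 8.09, 8.17, 8.24 and 8.16 in CASP11 -/-, 8.72, 9.07 and 8.97 in ASC -/- and 9.02, 8.84 and 9.06 in CIAS -/-. In wild type it read 9.32, 9.18, 9.24 and 9.22. CASP11 -/- arrays were the lowest of all young arrays, and Cx3cr1 fell by 0.78 (SE 0.15, adjusted p = 0.00389), a call that held in all 25 alternative settings. On CIAS -/- old replicate 6, outside this comparison, Cx3cr1 read 7.76, against 8.66 to 9.12 on the other old CIAS -/- arrays. The other 19 measured genes of homeostatic microglia were not called, and of all features 1.27% were called lower. The list's median was 0.03, and 14 of its 20 members were positive. P2ry12, the purinergic receptor of resting microglia, had a difference of 0.31 (adjusted p = 0.255), and Ctss, a lysosomal protease, 0.30 (adjusted p = 0.305). The summed signal of the 20 genes ran from 17295 to 17944 in CASP11 -/-, from 16273 to 17932 in ASC -/- and from 17161 to 17847 in CIAS -/-, with overlap.

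Myelin genes had mostly positive differences that did not pass the test over all arrays. Of 19 measured genes of myelin and mature oligodendrocytes, 17 had a positive difference, the median was 0.32 against 0.01 for all features, and 12 lay above all 6 other arrays, where 2.84% of all features did. In the fit of all arrays 0 were called, with Tspan2, a tetraspanin of myelinating cells, nearest at 0.49 (adjusted p = 0.0662). Mog, a protein of the outer myelin surface, read 9.34, 9.32, 9.29 and 9.38 in CASP11 -/-, 8.73, 9.09 and 8.86 in ASC -/- and 8.74, 8.80 and 8.61 in CIAS -/-. The sides did not overlap, and the difference was 0.53 (SE 0.18, adjusted p = 0.143). The adhesion protein Mag and the myelin proteolipid Mal had differences of 0.47 and 0.53 (adjusted p = 0.144 and 0.171). In the fit of the 14 young arrays 5 of the 19 were called higher, Cnp, Mag, Mal, Mog and Tspan2, where that fit called 1.36% of all features higher. Cnp was chosen after its value was seen. The summed signal of the list was 47486 to 50146 in CASP11 -/-, 35453 to 43542 in ASC -/-, 31485 to 41136 in CIAS -/- and 31205 to 43665 in wild type, and no young array of another group reached the CASP11 -/- range.

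**Figure D3:**
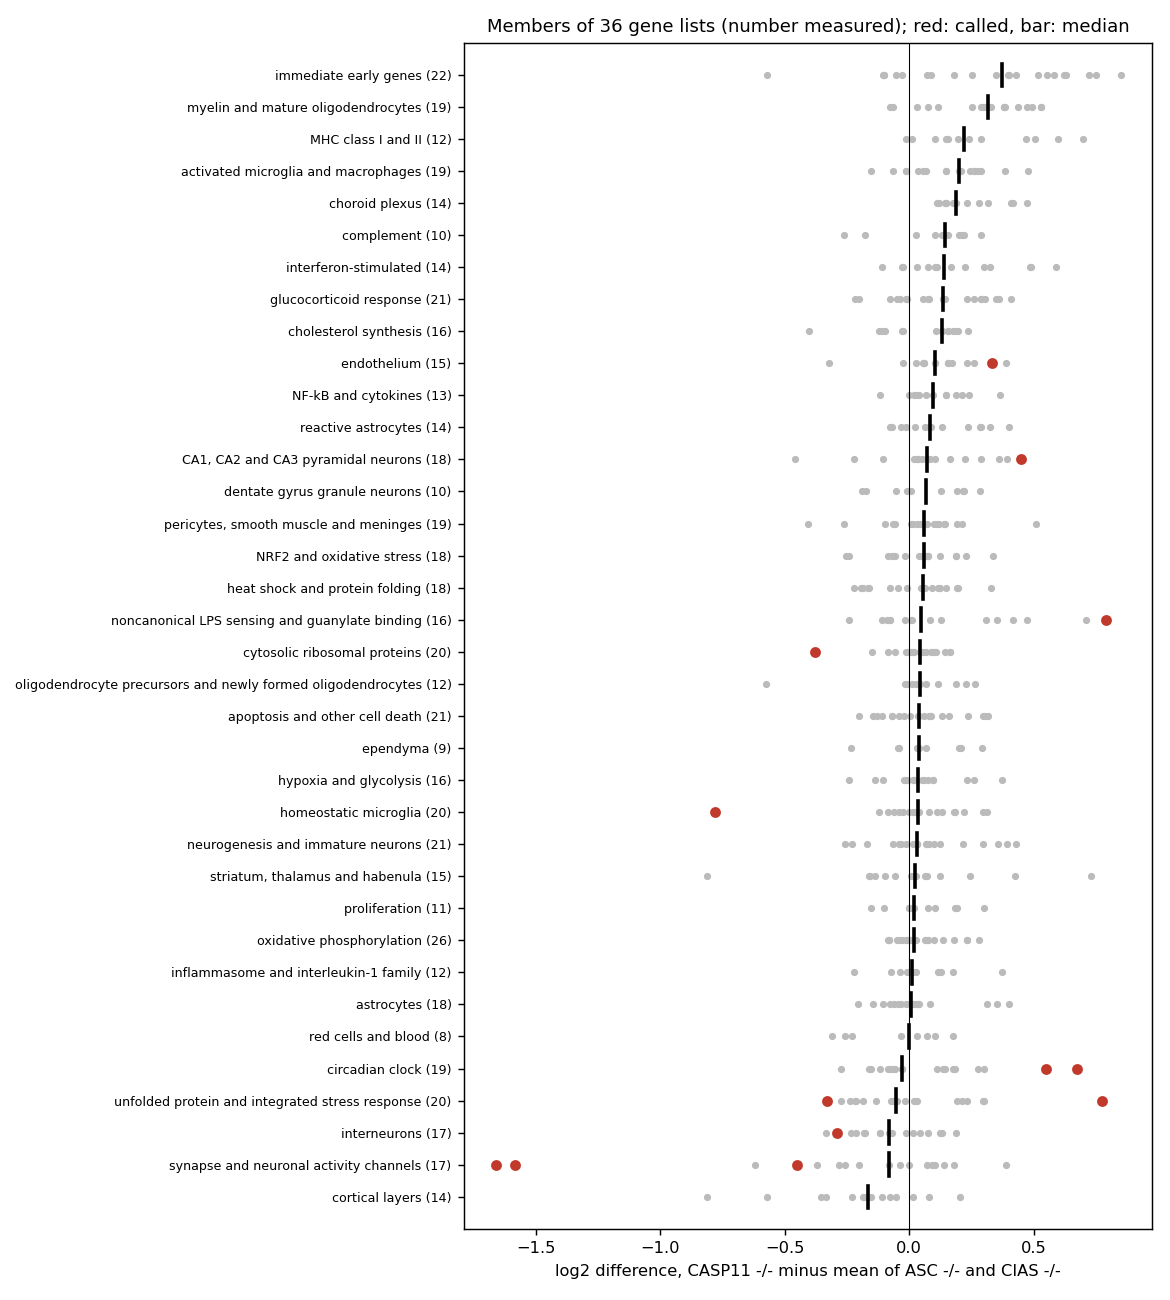
Log2 difference (CASP11 -/- minus the mean of ASC -/- and CIAS -/-) of every measured member of the gene lists, 1 row a list with the number measured, red for called genes and a bar for the list's median. Immediate early and myelin genes have the highest medians, 0.37 and 0.32, with 0 called in both, and the 2 largest falls in the plot are Scn1a and Kcna1.

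Immediate early genes, which neurons switch on within minutes of activity, had the highest median of all lists, 0.37 over 22 genes, with 0 called. The median was 0.26 against ASC -/-, 0.47 against CIAS -/- and 0.12 against young wild type. Klf4, a transcription factor, came nearest, at 0.43 (adjusted p = 0.0514), and Gadd45b, a stress-induced regulator of DNA demethylation, stood at 0.40 (adjusted p = 0.0609). Egr4, an activity-induced transcription factor, read 10.16, 10.59, 9.98 and 10.72 in CASP11 -/-, 9.90, 9.52 and 10.40 in ASC -/- and 9.65, 9.18 and 9.22 in CIAS -/-. ASC -/- replicate 4 fell inside the CASP11 -/- range, and the difference was 0.72 (adjusted p = 0.119). Nr4a2, an orphan nuclear receptor on the same list, had the opposite sign, at -0.57 (adjusted p = 0.131). In the fit of the 14 young arrays 4 were called higher, among them Egr4 and Klf4, and Nr4a2 was called lower, where that fit called 1.36% of all features higher and 3.61% lower.

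Cell types of neurons and vessels each gave at most 1 called gene, where 0.438% of all features were called higher and 1.27% lower. Man1a, a Golgi mannosidase on the list of pyramidal neurons of CA1 to CA3, rose by 0.45 (SE 0.10, adjusted p = 0.0182), a call lost in 4 of 25 settings, with 15 of the 18 genes positive and a median of 0.07. Pvalb, the calcium-binding protein of fast-spiking interneurons, read 10.52, 10.56, 10.52 and 10.52 in CASP11 -/-. The other 6 arrays read from 10.69 to 11.16. Pvalb fell by 0.29 (SE 0.08, adjusted p = 0.047) without overlap with these 6. On the wild type arrays it read from 10.49 to 10.82, which overlapped CASP11 -/-. Of the 17 interneuron genes 1 was thus called lower (1.27% of all features). Below all 6 other arrays lay 4 of them (5.17% of all features), and the median was -0.08. The summed signal ran from 23993 to 25018 in CASP11 -/- against 25452 to 28482 in ASC -/- and 25508 to 26113 in CIAS -/-. Ly6c1, a surface antigen of brain endothelium, rose by 0.33 (SE 0.09, adjusted p = 0.0414), although CASP11 -/- arrays from 8.20 to 8.79 overlapped the other 6, which read from 7.95 to 8.23. The endothelial transporter gene Slco1a4 had a difference of 0.39 (adjusted p = 0.0563), and the 15 endothelial genes had a median of 0.10. The calls of Pvalb and Ly6c1 were lost in 14 and 11 of 25 alternative settings.

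Summed signals of genes listed for tissue next to the hippocampus varied between arrays. The 14 measured choroid plexus genes were all positive with a median of 0.19 and 0 called, but their summed signal ran from 14282 to 28541 in CASP11 -/-, from 9110 to 28546 in ASC -/- and from 16741 to 30812 in CIAS -/-. Genes of cortical layers had a median of -0.16 with 0 of 14 called, and a summed signal from 14924 to 15046 in CASP11 -/-, below the 16801 to 19506 of ASC -/- and the 15408 to 16537 of CIAS -/-. The part of dissection in these sums and in the genes called was not tested. Eif2s3y, a gene of the Y chromosome, was low on 2 of 4 CASP11 -/-, 2 of 3 ASC -/- and 0 of 3 CIAS -/- arrays, and after adjusting for sex-linked transcripts 178 features were called, 175 of them among the 191.

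Stress and translation genes gave single calls of both signs, where 0.438% of all features were called higher and 1.27% lower. Hyou1, a chaperone of the endoplasmic reticulum, read 5.07, 6.25, 6.32 and 6.36 in CASP11 -/- and from 5.03 to 5.45 on the other 6 arrays. Replicate 1 lay with the other knockouts and the rest lay above them. Hyou1 rose by 0.77 (SE 0.19, adjusted p = 0.0266), and by 1.08 without replicate 1 (adjusted p = 0.000301). The call was lost in 9 of 24 alternative settings, among them those without CASP11 -/- replicate 2, 3 or 4 (adjusted p = 0.117, 0.14 and 0.118) and the fit of the 10 arrays (adjusted p = 0.0691). Ddit3, the CHOP transcription factor of the same unfolded protein response, fell by 0.33 (SE 0.08, adjusted p = 0.0329), and its second probe was called at -0.44. The call of Ddit3 was lost in 10 of 25 settings (adjusted p up to 0.196). The remaining 18 of the 20 measured genes of this response were not called, and the median was -0.05. Rpl23, of the large ribosomal subunit, fell by 0.38 (SE 0.06, adjusted p = 0.00142). Its CASP11 -/- levels, from 13.85 to 14.11, lay below the other 6, from 14.34 to 14.43. At this high level equal values recurred across arrays, such as 14.38 on ASC -/- replicates 1 and 2 and CIAS -/- replicate 1. Wild type read from 14.11 to 14.29 and met CASP11 -/- at 14.11. The other 2 probes of Rpl23 differed by -0.01 and 0.19, and the 19 other ribosomal protein genes measured were not called.

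Other genes among the 15 largest increases had smaller or less steady differences. Tmem267 rose by 0.91 (SE 0.22, adjusted p = 0.0281), but its CASP11 -/- range of 6.50 to 7.39 overlapped the other 6 arrays, which reached 6.72. Pdlim2, an adaptor that targets NF-kB and STAT proteins for degradation, rose by 0.50 (adjusted p = 0.0409), and 2 of its 3 other probes were called higher as well. Rgma, a repulsive axon guidance molecule, rose by 0.54 (adjusted p = 0.044), and Mkrn3, an imprinted gene that holds back puberty, by 0.55 (adjusted p = 0.0489). The calls of Rgma, Mkrn3, Pdlim2 and Tmem267 were lost in 13, 12, 10 and 9 of 25 settings. The transcript 4930447C04Rik rose by 0.57 (adjusted p = 0.0176) with overlap, a call lost in 5 of 24 settings. The membrane transporter Slc45a3 was detected on 3 of 4 CASP11 -/- and on 0 of 6 other arrays, and was at least 1.045-fold higher (adjusted p = 0.000472). Its call was lost in 2 of 21 settings.

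Genes near a knocked-out locus can carry DNA of the strain in which a mutation was made, and the nearest measured genes were therefore counted in the order of the GRCm38.p6 gene table. Around Casp4, 33 neighbours were measured, 8 before and 25 after it, and 2 were called, both lower, where 1.27% of all features were called lower. Alkbh8, which modifies the wobble base of tRNAs, read 6.08, 5.75, 5.98 and 6.18 in CASP11 -/- and from 6.59 to 7.13 on the others. It fell by 0.82 (SE 0.18, adjusted p = 0.0138) without overlap. Ankrd49 fell by 0.36 (SE 0.09, adjusted p = 0.0303), from a range of 8.66 to 9.03 on the other arrays to one of 8.32 to 8.55. The calls of Alkbh8 and Ankrd49 were lost in 2 and 7 of 25 settings. Both genes were also low on CIAS -/- old replicate 6, an array outside this comparison. There Alkbh8 read 5.81, against 6.44 to 6.87 on the other old CIAS -/- arrays. Ankrd49 read 8.13 there, against 8.40 to 8.76. Around Pycard and around Nlrp3, 0 of 50 neighbours each were called. A change in only 1 of the 2 knockouts is diluted in their mean, so these counts are not like that around Casp4. Between ASC -/- and CIAS -/- directly, 0 of these neighbours were called, as of all features. Passenger DNA was not measured, and its part in these values was not tested.

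Other probes of the same genes gave mixed answers. Of the 167 called genes with a symbol, 44 had at least 1 further measured probe, 57 probes in all. The sign was the same for 42 of the 57, 16 were called with the same sign, and 1 was called with the opposite sign. The last belonged to Gkap1, at -0.62 with the probe tested and 0.50 with the other. Of the further probes 35 were detected on all 10 arrays, and 27 of these had the same sign and 12 were called with it. In that fit of all 14745 probes, 237 were called in either direction. Pde1a, a calcium-dependent phosphodiesterase, was called lower with all 3 probes (-1.19, -1.10 and -1.11), as was Grip1, a scaffold of AMPA receptors, with both (-0.76 and -0.78). Gkap1, Pde1a and Grip1 were picked with their values in view. Of the called features, 27 were detected on 0 of 4 CASP11 -/- arrays and 3 on 0 of the other 6. The like shares of all features were not computed.

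**Figure D4:**
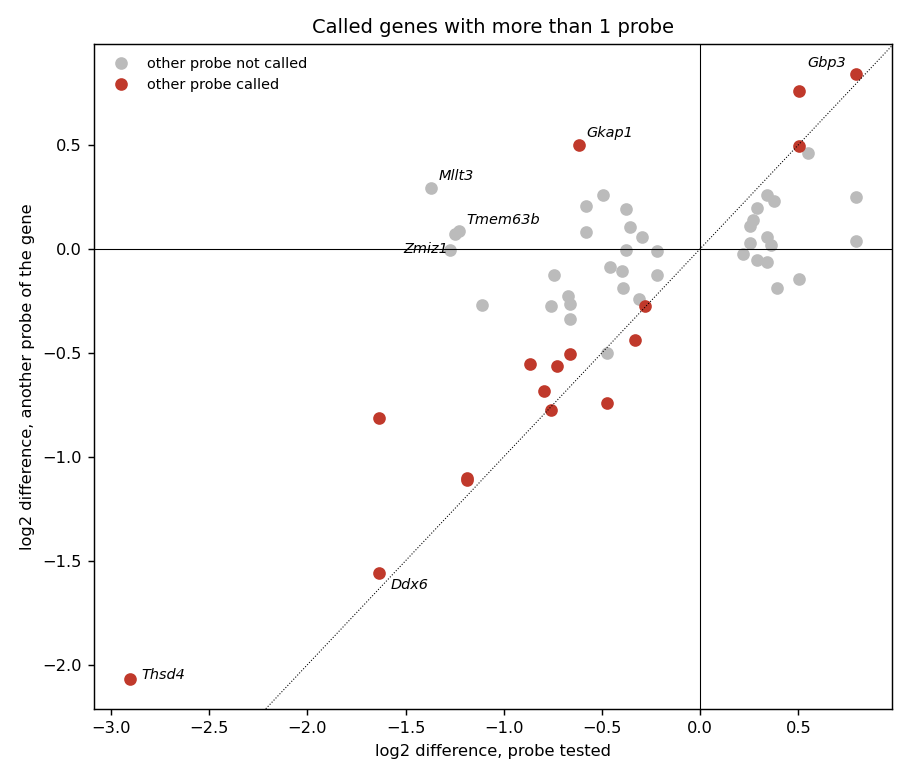
For called genes with more than 1 measured probe, the log2 difference of the probe tested (x axis) against that of another probe of the gene (y axis), red where the other probe was called and with the line of equality dotted. Thsd4 and Ddx6 lie far below 0 on both axes, whereas Mllt3, Zmiz1 and Tmem63b lie on or above 0 on the y axis.

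The young wild type arrays served as a further reference, although they share the CASP11 -/- arrays with the comparison above. CASP11 -/- differed from wild type in 299 features (2.67%), and the mean of the ASC and CIAS knockouts in 11 (0.0984%). For Scn1a the difference from wild type was -2.08 in CASP11 -/- and -0.42 for the mean of the other knockouts (adjusted p = 1.27e-05 and 0.759). For Kcna1 these values were -2.21 and -0.62 (adjusted p = 7.1e-06 and 0.489), and for Cx3cr1 -1.07 and -0.29 (adjusted p = 0.000182 and 0.695). Rbm3 stood 1.32 above wild type in CASP11 -/- (adjusted p = 2.09e-06) and 0.53 above it in the other knockouts (adjusted p = 0.137). Klf2 stood at 0.65 and -0.21 relative to wild type (adjusted p = 0.0267 and 0.842). Rpl23 stood at -0.19 and 0.19, and neither value was called (adjusted p = 0.153 and 0.406).

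The low level of the genes called lower was also seen on 1 array outside the comparison. By the choice of these genes CASP11 -/- arrays lie below the young ASC and CIAS knockouts: the mean log2 signal over the 142 lower genes was 6.83 to 6.94 in CASP11 -/-, 7.52 to 7.68 in young ASC -/-, 7.59 to 7.70 in young CIAS -/- and 7.63 to 7.73 in young wild type. CIAS -/- old replicate 6, for which the labels name no caspase-11 mutation, stood at 6.74, below every CASP11 -/- array. Relative to the 5 other old CIAS -/- arrays, 110 of the 142 genes were lowest on this array, where 15.6% of all features were. Among the 110 were Zbtb7a (4.58), Scn1a (7.27), Kcna1 (4.83), Tenm4 (6.93), Ppargc1a (7.17), Irs2 (5.47) and Cx3cr1 (7.76). Each of these also read below every CASP11 -/- array. Cacna1a, Pvalb, Ddit3 and Rpl23 were not among the 110. The mean over the 49 higher genes was 7.99 to 8.04 in CASP11 -/- and at most 7.70 on all other arrays of the series, and 10 of the 49 were highest on CIAS -/- old replicate 6 within its group, where 22% of all features were. Without that array 288 features were called, among them all 191. By the labels the arrays are numbered group after group with the 4 CASP11 -/- arrays last, and CIAS -/- old replicate 6 has the number directly before them. Slide and hybridisation are not given, so genotype and array position cannot be told apart for the genes called in CASP11 -/-. The median genomic span was 41.8 kb for the lower genes, 14.8 kb for the higher genes and 22.4 kb for all genes.

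**Figure D5:**
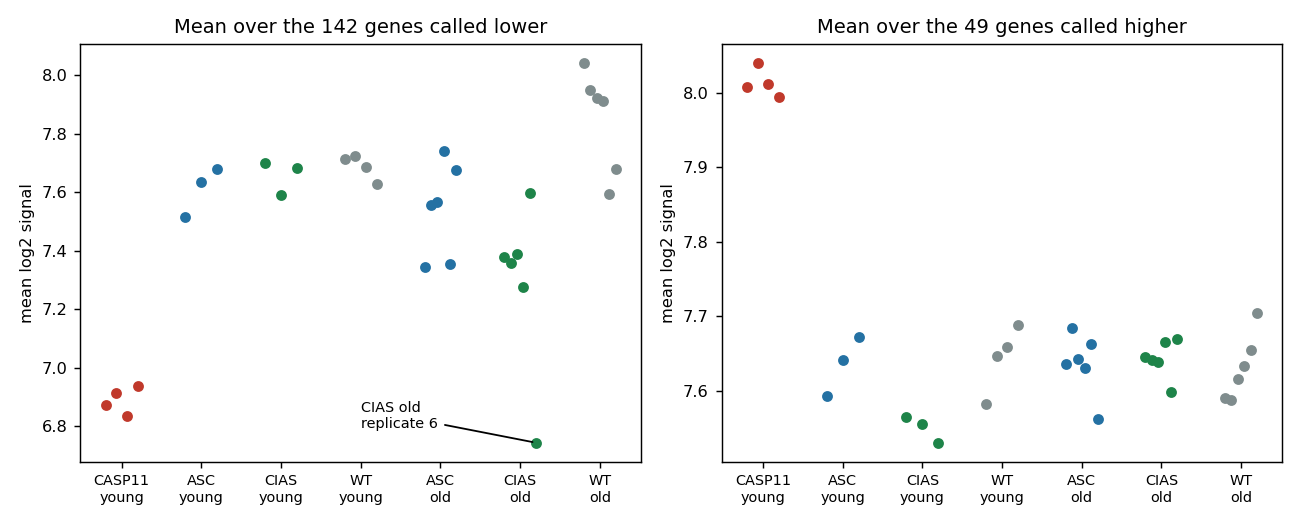
Mean log2 signal of the 142 genes called lower (left) and the 49 called higher (right) on each of the 32 arrays, by group, 1 point an array. The genes were chosen by the difference of the CASP11 -/- arrays from the young ASC and CIAS knockouts, so that gap is fixed by the choice. CIAS -/- old replicate 6 lies at 6.74 in the left panel.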

How the data were processed

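The deposited main table holds probe intensity (mean bead signal, linear scale, not normalized, per the file headers) with a detection p-value beside each signal for 32 arrays and 25697 probes. Per the submitters' processing notes GenomeStudio was used, with no version named. A deposited table of normalized intensity served as an alternative, and how it was normalized is not stated in these sources.

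In R 4.3.3 with limma 3.58.1, neqc corrected background, added an offset of 16, quantile-normalized all arrays and took log2. The 14745 probes with detection p under 0.05 on at least 3 arrays were kept, and the probe of highest mean was tested for each gene. Symbols came from the platform annotation, and 23962 of 23978 matched the GRCm38.p6 gene table. One fit of 7 group means over the 32 arrays (25 residual and 4.09 prior degrees of freedom) gave 2-sided tests with Benjamini-Hochberg adjustment over all 11178 features, and was tested on simulated data. Arrays detected 13172 to 13900 probes, and 0 pairs of arrays were identical. The number of arrays limits the precision. The labels do not say that arrays are separate animals, so the p-values reflect the spread among these samples alone, and that spread may be technical. Probes not detected on a whole side have only a bound.

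Members, tests and gene lists were chosen with earlier results of these data known. Named genes were the targets and Casp1, the 15 called genes with the largest fold in each direction, up to 4 members of each of 38 lists with the smallest p, and called genes among the 25 nearest measured on each side of a target. Where more are named, this is said. Sums of a list's signal are on the linear scale. Same-numbered arrays of different knockouts deviated together with r over 0.1 in only 3 of 9 pairs (from -0.19 to 0.27), so the numbers were not taken as pairs. Alternatives changed the background correction, offset, source of values, filter, arrays in the fit, covariates, array weights, variance model, probe choice, fold threshold and grouping, and left out each of the 10 arrays in turn.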

Additional observations from a re-analysis of the deposited data

Results flagged for a closer look

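In 8 of 174 genes checked, 1 of the 4 CASP11 -/- arrays lay farther from its nearest neighbour than Dixon's 95% limit allows, and chance flags about 1 in 20 groups. On replicate 1, Gbp3 stood at 8.86 and Gbp2 at 8.95, both above the other 3 arrays, while 4930447C04Rik at 5.12 and Hyou1 at 5.07 stood below them. The respiratory chain gene Ndufa2 stood at 11.29 on the same replicate. On replicate 2, Pvalb stood at 10.56 and the dentate gyrus gene C1ql3 at 7.55. On replicate 3, the microglial protease gene Ctss stood at 6.98, below the other 3. Outside the 10 arrays compared, the mean log2 level of the genes called lower in CASP11 -/- was 6.74 on CIAS -/- old replicate 6, below the 6.83 to 6.94 of the CASP11 -/- arrays. The causes were not tested.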

How the results depend on the processing

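The count of 191 called features became 552 with the 10 arrays only in the fit, 555 with the 14 young arrays, 865 with array weights, 81 at 1.5-fold or more and 336 without wild type old replicate 6. It was 288 without CIAS -/- old replicate 6, an alternative chosen after seeing the data. The count called against both knockouts, 23, became 189, 191 and 161 in the first 3 of these, 35 with all probes tested separately, and 56 and 76 without those old arrays. With a replicate block in a fit of the 10 arrays these counts were 228 and 63. Leaving out 1 of the 10 arrays gave 78 to 159 for the first count and 2 to 16 for the other. The first fell by more than 1.5 times without CASP11 -/- replicates 1 to 4 (82, 82, 78 and 117) and CIAS -/- replicate 4 (121). The other did so without those arrays (14, 9, 10, 15 and 7) and without ASC -/- replicates 1, 2 and 4 (11, 10 and 2). ASC against CIAS gave 0 in every setting run. Of 38 called genes followed across settings, 19 kept the call in all 25 settings, 19 lost it in at least 1, and 0 changed sign. Of 22 uncalled genes followed, 13 were called in at least 1 setting. Gkap1, Pde1a, Grip1, Syn2 and Cnp were not followed. The differences of Casp1 and Casp4, both 0.01, changed sign. Casp1 stood at -0.001021 with the sex covariate and at -0.0034 with array weights, and Casp4 at -0.018 with the replicate block. With 1 array left out Casp1 ran from -0.052 to 0.077 and Casp4 from -0.045 to 0.049. The causes were not tested.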
